A study of Mus musculus with 10 samples.

Results

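The genes described here are 40 genes of protein folding in the endoplasmic reticulum (ER) and of the unfolded protein response, chosen by symbol from a list of chaperones, disulfide isomerases, stress sensors and factors, degradation factors and translocation subunits. All 40 were found among the 18022 genes listed in the tables. The cells came from crypts of the small intestine of C57Bl/6 mice, the only strain and tissue named, with no treatment, genotype or age named in the labels. Crypts are the pockets of the intestinal lining that hold stem cells, Paneth cells and the young goblet and absorptive cells. Each of 10 CEL-seq2 libraries is a plate of 384 wells, of which 7 hold sorted single cells and 3 hold picked doublets or triplets, so that a picked well can contain a second cell type by design. CEL-seq2 reads the 3′ end of each transcript and counts molecules by a random barcode, so values are transcripts per 1000000 transcripts of the summed wells (CPM), not divided by gene length. Sorted libraries 1 to 5 carry the title code GK5a, sorted libraries 6 and 7 the code GK5b, and the picked libraries a code starting with JC. Titles of the GK5a libraries differ only in a running number, while those of sorted libraries 6 and 7 end in G and in L. What these endings mean is not stated. Nothing in the labels ties libraries to animals, and a p-value here therefore reflects the spread between plates, which may be technical.

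Secreted and membrane proteins enter the ER through the Sec61 channel, fold there with the help of chaperones such as Hspa5 (BiP), and gain disulfide bonds through protein disulfide isomerases. When folding lags, the unfolded protein response acts through the sensors Ern1 (IRE1 alpha), Atf6 and PERK and through the transcription factors Xbp1, Atf6 and Atf4, which raise chaperone and degradation genes. Goblet cells make the large, disulfide-rich mucin Muc2 and Paneth cells make defensins and lysozyme, so both carry a heavy secretory load, and Ern2 (IRE1 beta) is known as the form of the sensor found in gut and airway epithelium.

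Wells with at least 1000 transcripts were used, 1615 sorted and 501 picked, and they were classed without any of the 40 genes. A well was called goblet when Muc2, Fcgbp, Zg16 and Clca3 made up at least 2% of its transcripts, Paneth when genes with symbols starting with Defa made up at least 5%, absorptive when Apoa1 and Apoa4 made up at least 0.5%, and Lgr5-positive when it held a transcript of the stem cell marker Lgr5 and met none of these. This gave 361 goblet, 37 Paneth, 79 absorptive, 360 Lgr5-positive and 777 other wells in the sorted libraries. Just outside the goblet threshold, 123 wells of both kinds of library lay at 1 to 2%, and just inside it 86 lay at 2 to 3%. Markers that the rules did not use were highest in the class of their label: 5 further goblet markers summed to between 39347 and 66019 CPM in sorted goblet wells and to between 125 and 4142 CPM in Lgr5-positive wells, while 5 further Paneth markers reached 287910 to 305850 CPM in Paneth wells. The goblet and Paneth classes shared some of them. Those goblet markers were at 3550 to 12021 CPM in Paneth wells. Those Paneth markers were at 4070 to 23199 CPM in goblet and 400 to 2346 CPM in Lgr5-positive wells. The median well held between 3361 and 16427 transcripts in the sorted libraries and between 2756 and 7235 in the picked ones. Goblet wells made up 57.2% of the wells of sorted library 6 and 34.5% of sorted library 7, against 9.0 to 12.5% in GK5a libraries. Xist was at 0 to 0.978 CPM in the sorted and 115 to 155 CPM in the picked libraries, and Y-linked genes were at 158 to 204 CPM and at 0, so that preparation, title code and sex cannot be told apart.

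In goblet wells the 40 genes together made up 2.87 times the share of transcripts that they did in Lgr5-positive wells. Their summed share was 1.87% ± 0.142 (SD, n = 7 sorted libraries) in goblet wells, from 1.60 to 2.06%. In Lgr5-positive wells it was 0.653% ± 0.106 (n = 7), from 0.541 to 0.868%, and in wells of no class 0.953% ± 0.152 (n = 7). Goblet wells lay above both in 7 of 7 libraries with no overlap between libraries. The difference from Lgr5-positive wells was 1.22 percentage points (SD of the differences 0.135) and the exact sign-flip permutation test gave a two-sided p = 0.0156, the smallest that 7 libraries allow (adjusted p = 0.0365 over 7 pairs of classes). Wells of no class exceeded Lgr5-positive wells by 0.30 points, also in 7 of 7 libraries (exact sign-flip p = 0.0156, adjusted p = 0.0365).

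Absorptive wells held 0.639% ± 0.0673 (n = 5 libraries with at least 5 such wells), which was 0.0367 points above the Lgr5-positive wells of the same libraries, in 4 of 5 libraries (exact sign-flip p = 0.312). Paneth wells held 0.518% ± 0.0833 (n = 4 libraries), a difference of -0.0758 points from the Lgr5-positive wells of the same libraries, with 1 of 4 libraries above (exact sign-flip p = 0.25, where 4 libraries cannot give less than 0.125). The Paneth value depends on what it is a share of, because the 5 further Paneth markers alone reached 287910 to 305850 CPM there. With the goblet, Paneth, stem and absorptive markers left out of the total, a choice made after seeing the data, Paneth wells held 0.921% and Lgr5-positive wells 0.597%, higher by 0.324 points in 4 of 4 libraries (exact sign-flip p = 0.125). Goblet wells stayed the highest of the classes under that total, at 2.20% (n = 7).

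**Figure D1:**
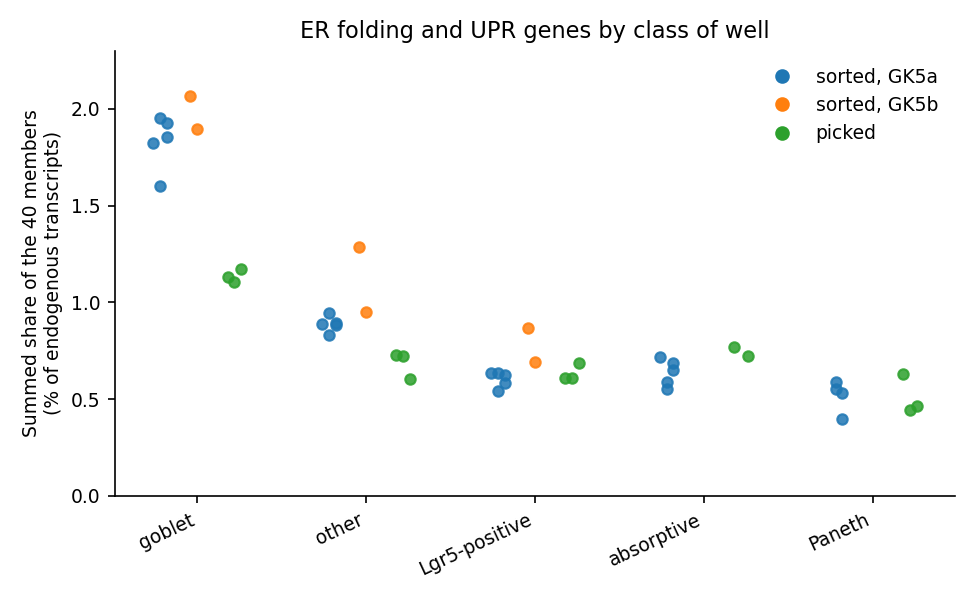
Summed share of the 40 genes (percent of transcripts, linear axis from 0) in each class of wells, with 1 point per library and colours for sorted GK5a, sorted GK5b and picked libraries. Sorted goblet wells lie between 1.60 and 2.06%, above every library of every other class, and picked goblet wells lie between 1.11 and 1.17%.

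Gene by gene, 35 of the 39 genes that could be tested were higher in goblet than in Lgr5-positive wells of the sorted libraries and none was lower (limma on log2(CPM + 10) with the library as a block, Benjamini-Hochberg adjusted p below 0.05 over 10043 genes). Among all genes tested, 10.8% were higher and 16.6% lower. The median log2 difference of the 39 was 1.70, and that of all genes was -0.17. In 31 of the 40 every goblet library lay above every Lgr5-positive library, a count that was not made for all genes. By role, 9 of 10 chaperones and co-chaperones, 1 of 2 lectin chaperones, 5 of 5 disulfide isomerases, 4 of 5 tested sensors and factors, 6 of 7 degradation genes and 10 of 10 translocation and signal peptide genes were higher. With every well thinned to 1000 transcripts, 3013 genes passed the filter and 15 members were called, all higher. The share of those genes called is not given here, so the 15 cannot be set against the 35 of 39.

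Among the chaperones, Hspa5, the main Hsp70 chaperone of the ER (chr2:34771970-34777547, mm10), ranged from 1392 to 2175 CPM (median 1677) over the 7 goblet sums and from 350 to 963 CPM (median 489) over the Lgr5-positive ones. The groups did not overlap, and the log2 difference was 1.99 ± 0.17 (SE, limma adjusted p = 1.53e-10). Dnajc10, an ER co-chaperone with disulfide reductase domains, ranged from 507 to 934 CPM (median 638) against 43.5 to 134 CPM (median 62.5), a log2 difference of 3.27 ± 0.27 (limma adjusted p = 9.69e-11). Manf, a small secreted ER stress protein, ranged from 602 to 791 CPM (median 696) against 119 to 265 CPM (median 163). Its log2 difference was 2.26 ± 0.22 (limma adjusted p = 3.89e-09). All 3 therefore stood clear of the Lgr5-positive wells in each library. Hyou1, a large Hsp70-like chaperone, ranged from 64.9 to 206 CPM (median 131) against 21.8 to 32.0 CPM (median 28.5), a log2 difference of 2.05 ± 0.31. Sdf2l1, a partner of ER co-chaperones, ranged from 69.3 to 104 CPM (median 80.7) against 10.2 to 25 CPM (median 14.1), a difference of 2.09 ± 0.36. Hsp90b1, the ER form of Hsp90 also called Grp94, was already at 417 to 717 CPM (median 521) in Lgr5-positive wells and at 837 to 1235 CPM (median 1083) in goblet wells, a smaller difference of 1.30 ± 0.20. These 3 also showed no overlap between the groups. The co-chaperones Dnajb11, Dnajc3 and Creld2 were higher by 1.42, 1.82 and 1.70. Dnajb9, a co-chaperone that holds Ern1 inactive, had a difference of 1.06 ± 0.47 and did not pass (limma adjusted p = 0.091).

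The lectin chaperones hold newly made glycoproteins, and the pair differed. Calr, the soluble one, ranged from 985 to 1616 CPM (median 1284) in goblet wells and from 325 to 502 CPM (median 390) in Lgr5-positive wells, a log2 difference of 1.99 ± 0.15 (limma adjusted p = 1.54e-11). Canx, its membrane-bound relative, ranged from 316 to 498 CPM against 340 to 483 CPM, with a difference of 0.37 ± 0.16 that did not pass (limma adjusted p = 0.09).

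All 5 disulfide isomerases were higher. Pdia5 (chr16:35397312-35490873, mm10) ranged from 247 to 596 CPM (median 499) in goblet wells and from 4.17 to 149 CPM (median 42.9) in Lgr5-positive wells, a log2 difference of 3.45 ± 0.36 (limma adjusted p = 1.25e-08). Pdia6 ranged from 961 to 1227 CPM (median 1076) against 178 to 324 CPM (median 226), a difference of 2.49 ± 0.24. P4hb, the archetypal isomerase, ranged from 1116 to 1749 CPM (median 1418) against 250 to 641 CPM (median 483), a difference of 1.84 ± 0.15. None of these 3 overlapped between the groups. Pdia3, which works with the lectin chaperones, and Pdia4 were higher by 1.88 and 1.24, with overlap between libraries.

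The sensors and factors spread most. Ern2 (chr7:122169893-122186207, mm10) had the largest difference of the 40, from 242 to 507 CPM (median 383) in goblet wells against 0 to 38.7 CPM (median 13.6), 4.13 ± 0.44 on the log2 scale (limma adjusted p = 1.62e-08). After each well was thinned to 1000 transcripts, an Ern2 transcript was left in 32.7% of goblet wells (95% exact binomial interval 27.9 to 37.8), in 16.2% of Paneth wells (6.19 to 32.0) and in 1.67% of Lgr5-positive wells (0.614 to 3.59), and in 0 of 79 absorptive wells, where the limit taken for a count of 0 (3 wells) is 3.80% and the exact upper bound 4.56%. Without thinning it was seen in 83.7% of goblet wells and 8.89% of Lgr5-positive wells, with median depths of 8380 and 8554 transcripts. These intervals cover counting error only. Ern1, the widely expressed form of the sensor, was near the limit of detection, with 3 transcripts in all goblet and 3 in all Lgr5-positive wells of the sorted libraries, and was not tested. Xbp1, the transcription factor whose mRNA Ern1 and Ern2 splice, ranged from 660 to 874 CPM (median 739) in goblet wells against 108 to 318 CPM (median 216), a log2 difference of 2.02 ± 0.22 with no overlap. The 3′ tags do not tell its spliced from its unspliced mRNA. Atf4, the factor translated when PERK is active, ranged from 463 to 690 CPM (median 490) against 200 to 313 CPM (median 257), a difference of 1.35 ± 0.17. Ddit3 (CHOP), its target linked to cell death, was low in both, at 10.1 to 26.4 CPM (median 13.9) against 0 to 8.18 CPM (median 6.13). Its difference of 0.84 ± 0.31 passed narrowly (limma adjusted p = 0.0473) and no longer passed when any 1 of sorted libraries 2, 3, 4 and 6 was left out (0.81 to 0.85). Atf6, the sensor that becomes a transcription factor, ranged from 27.7 to 88.1 CPM against 29.2 to 55.9 CPM, a difference of 0.72 ± 0.39 that did not pass (limma adjusted p = 0.186).

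Degradation and translocation genes followed the goblet wells too, mostly by smaller amounts. Herpud1, a membrane scaffold of ER-associated degradation, was higher by 1.96 ± 0.22 on the log2 scale, Edem1, a lectin that hands over misfolded glycoproteins, by 1.84 ± 0.41, and Syvn1, the ubiquitin ligase Hrd1, by 1.78 ± 0.35. Sel1l, the Hrd1 adaptor, and the Derlin proteins Derl1 and Derl2 differed by 1.17, 0.94 and 0.78. Sec61b, a subunit of the translocation channel, ranged from 849 to 1310 CPM (median 1189) in goblet wells against 264 to 388 CPM (median 315), a difference of 2.06 ± 0.23 (limma adjusted p = 2.85e-08). Ostc, a subunit of the oligosaccharyltransferase that glycosylates entering proteins, ranged from 707 to 1245 CPM (median 759) against 185 to 279 CPM (median 219), a difference of 2.12 ± 0.18. Neither overlapped between the groups. The channel subunits Sec61a1 and Sec61g, the translocon-associated subunits Ssr1, Ssr2, Ssr3 and Ssr4, and the signal peptidase subunits Spcs1 and Spcs2 were higher by 1.08 to 1.80. Derl3 was at 0 to 4.62 CPM in goblet and 0 to 2.73 CPM in Lgr5-positive wells, with a difference of 0.01 ± 0.15 (limma adjusted p = 0.966).

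**Figure D2:**
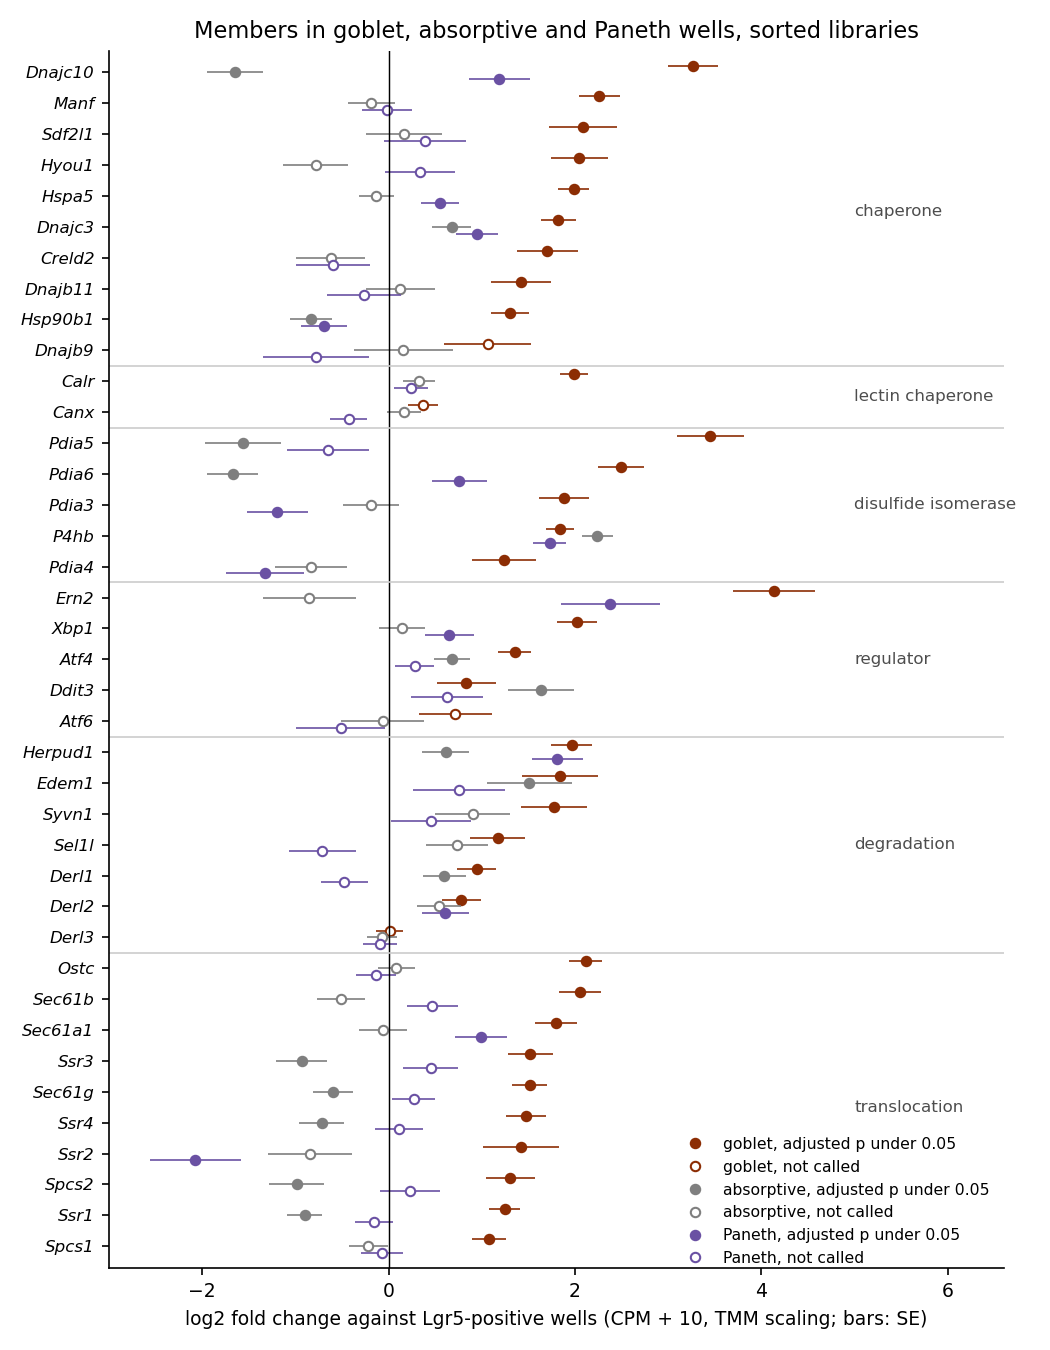
Log2 difference of each tested gene from Lgr5-positive wells of the sorted libraries, grouped by role, for goblet, absorptive and Paneth wells (limma on log2(CPM + 10), horizontal bars are 1 SE, filled points passed the test). The goblet points run from 0.01 for Derl3 to 4.13 for Ern2 and all lie above 0, while absorptive and Paneth points lie on both sides.

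Promoters of these genes are shown because many ER chaperone genes carry a known sequence, the ER stress response element (ERSE), bound by NF-Y together with Atf6 or Xbp1. It reads CCAAT, 9 bases of any kind, then CCACG, and was searched on both strands in the 300 bases around each RefSeq gene start (build GRCm38.p6, 250 bases before to 50 after). Promoters of 32 of the 40 genes were found by symbol, and those of Manf, Hyou1, Atf6, Derl1, Ern2, Sec61a1, Ssr2 and Ostc were not matched. The ERSE was present in 9 of the 32 (28.1%: Hspa5, Hsp90b1, Calr, Canx, Pdia6, Dnajc3, Creld2, Syvn1 and Derl3) and in 37 of 27025 symbols with a promoter (0.137%). The related ERSE-II, ATTGG, 1 base of any kind, then CCACG, was present in Dnajb11 and Herpud1 and in 12 symbols in all (0.0444%), and TGACGTG, the core bound by Xbp1 and Atf6, in Hspa5 and in 2.22% of symbols. Sequences below are cut upstream of the RefSeq start, given 5′ to 3′ on the strand of the gene, with these matches in capitals. The GENCODE position of Hspa5 given above begins at 34771970, inside its printed stretch. By that position the end of the stretch, with the ERSE, lies within the gene. A match written in reverse reads CGTGG first and ATTGG last. Hspa5 alone held an ERSE and TGACGTG, which did not overlap, and Hsp90b1 held 2 ERSE matches in opposite orientations.
Hspa5 (chr2:34771840-34772089, plus strand, 250 to 1 bases before the start): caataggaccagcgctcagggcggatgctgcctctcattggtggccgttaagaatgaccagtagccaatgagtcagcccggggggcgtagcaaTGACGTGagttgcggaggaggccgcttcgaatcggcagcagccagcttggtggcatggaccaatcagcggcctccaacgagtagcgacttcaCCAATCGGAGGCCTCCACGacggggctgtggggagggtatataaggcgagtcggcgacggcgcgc
Hsp90b1 (chr10:86705513-86705676, minus strand, 232 to 69 bases before the start): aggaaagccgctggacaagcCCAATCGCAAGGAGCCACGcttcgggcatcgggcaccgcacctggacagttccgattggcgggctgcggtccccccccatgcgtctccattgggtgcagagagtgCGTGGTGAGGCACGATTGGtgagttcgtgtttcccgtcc
Calr (chr8:84847055-84847113, minus strand, 182 to 124 bases before the start): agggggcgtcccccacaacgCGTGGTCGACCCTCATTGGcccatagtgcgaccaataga
Pdia6 (chr12:17266471-17266529, plus strand, 118 to 60 bases before the start): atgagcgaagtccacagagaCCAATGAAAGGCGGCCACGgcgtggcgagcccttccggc
Creld2 (chr15:88819500-88819558, plus strand, 146 to 88 bases before the start): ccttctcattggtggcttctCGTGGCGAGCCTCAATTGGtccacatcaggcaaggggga
Dnajc3 (chr14:118937807-118937865, plus strand, 125 to 67 bases before the start): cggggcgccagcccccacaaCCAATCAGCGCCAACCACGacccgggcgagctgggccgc
Herpud1 (chr8:94386357-94386407, plus strand, 72 to 22 bases before the start): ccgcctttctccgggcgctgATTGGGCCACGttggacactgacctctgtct
A match describes the letters of the window only. Of the 9 genes with an ERSE, 7 were called higher in goblet wells with a median log2 difference of 1.78, and of the 22 tested genes with a promoter and no ERSE, 21 were called higher with a median of 1.5. Canx and Derl3, which did not pass, were the other 2 with the element.

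Wells with goblet markers below the goblet threshold already held most of the members' goblet share. Sorted wells, without Paneth and absorptive wells, were binned by the share of Muc2, Fcgbp, Zg16 and Clca3, and the members' share was taken with these 4 left out of the total. It was 0.735% (0.70 to 0.765% over 7 libraries) in 773 wells with under 0.1% of the 4 markers, 0.967% (0.722 to 1.46%) at 0.1 to 0.5%, and 1.72% (1.42 to 2.06%) in 139 wells at 0.5 to 2%, below the goblet threshold. In the goblet bins it was 2.03% at 2 to 5%, 2.08% at 5 to 10% and 2.00% from 10% upwards. Across these last 3 bins the mean thus moved by less than its SD between libraries (0.129 to 0.380). Goblet wells with at least 5% and with 2 to 5% differed by 0.0176 points (2.04 against 2.03%, higher in 4 of 7 libraries, exact sign-flip p = 0.797). The 139 wells at 0.5 to 2% pooled to 228 CPM of Spdef, a goblet transcription factor, against 236 CPM in goblet wells and 1.06 CPM in wells under 0.1%. Agr2, an ER isomerase needed for Muc2 and no member, was at 6750, 10173 and 39.5 CPM in the same order. The proliferation marker Mki67 was at 860 CPM in the wells at 0.5 to 2%, 176 CPM in goblet wells and 341 CPM in wells under 0.1%, and Chga of enteroendocrine cells at 39.4, 4.16 and 64.6 CPM. Whether depth, with medians of 9540, 8380 and 7452 transcripts per well in that order, has a part in this was not tested.

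Inside the goblet class, goblet wells with at least 5% of markers were above those with 2 to 5% in 6 or 7 of 7 libraries for 5 of the 40 genes, in 2 to 5 libraries for 30, and in at most 1 for 5, with a median ratio of 0.979 and no test. P4hb had a mean of 1678 CPM in the goblet wells with at least 5% of markers and 1335 CPM in those with 2 to 5%, higher in 7 of 7 libraries. Ddit3 was at 29.2 and 2.18 CPM, from 39 and 9 transcripts in all, and also higher in 7 of 7. Hsp90b1 went the other way, at 1030 and 1349 CPM, higher in 1 of 7 libraries, as did Pdia5 at 444 and 581 CPM, also in 1 of 7. These 4 are among the extremes and were picked after their values were seen.

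**Figure D3:**
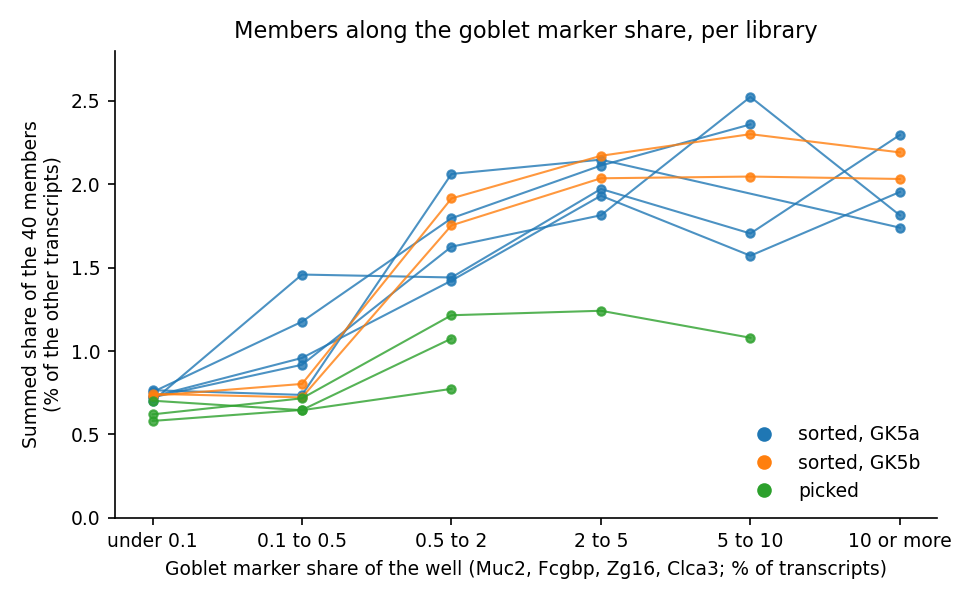
Summed share of the 40 genes (percent of transcripts without the 4 goblet markers) in bins of the share of goblet markers, with 1 line per library coloured by sorted GK5a, sorted GK5b and picked, for bins of at least 5 wells. The sorted libraries go from 0.735% on average in the lowest bin to 1.72% at 0.5 to 2% and lie between 1.57 and 2.52% in the 3 goblet bins.

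Paneth wells of the sorted libraries shared only some of this pattern. Of 39 genes tested, 10 were higher and 4 lower than in Lgr5-positive wells (limma, 4 libraries with Paneth wells), where 2.89% of all genes were higher and 58% lower with a median log2 difference of -0.95. The direction depends on the scaling, since with library totals in place of TMM 3 were higher and 20 lower, and the median of all genes moved to -1.29. Ern2 was at 0 to 238 CPM (median 93.4) in Paneth wells, 2.38 ± 0.54 above Lgr5-positive wells (limma adjusted p = 0.00046). Herpud1 ranged from 149 to 225 CPM, a difference of 1.81 ± 0.27, and P4hb from 789 to 1020 CPM (median 871), a difference of 1.73 ± 0.18 (limma adjusted p = 1.34e-08). These 3 still passed with library totals, at 1.84, 1.07 and 0.94. Dnajc10 (1.19), the channel subunit Sec61a1 (0.99) and Dnajc3 (0.95) were higher with TMM, and with totals no longer passed at 0.47, 0.25 and 0.23. Pdia6 (0.76), Xbp1 (0.65), Derl2 (0.61) and Hspa5 (0.55) were higher with TMM and turned to -0.0002, -0.10, -0.05 and -0.22 with totals. The lower genes were Ssr2 (-2.07), Pdia4 (-1.33), Pdia3 (-1.19) and Hsp90b1 (-0.69), of which Hsp90b1 ranged from 74.6 to 300 CPM. Pdia4 and Pdia3 rested on only 2.0 and 5.0 transcripts in the summed Paneth wells, near the limit of detection. The count of higher genes was 4 without sorted library 2 and 6 without sorted library 7, and that of lower genes was 8 without sorted library 2 or 4 and 7 without sorted library 5. After thinning to 1000 transcripts 1 gene was higher and 11 were lower.

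Set directly against Paneth wells, goblet wells were higher in 33 of 39 genes and lower in none, with 47.9% of all genes higher and 1.93% lower. The 6 that did not pass were P4hb (0.11 ± 0.18), Herpud1 (0.15 ± 0.27), Derl2 (0.17 ± 0.25), Ddit3 (0.21 ± 0.38), Derl3 (0.10 ± 0.18) and Edem1 (1.08 ± 0.49) on the log2 scale. Pdia5 showed the largest difference, 4.10 ± 0.44 (limma adjusted p = 1.83e-08). Its Paneth values were 36.6, 24.9, 0 and 0 CPM in sorted libraries 1, 2, 4 and 5, on sums of 27345 to 53264 transcripts. A Pdia5 transcript was seen in 4 of the 37 Paneth wells, so the size of this difference rests on few transcripts and on the added 10 CPM.

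In absorptive wells members differed in both directions. Of 39 tested, 7 were higher and 9 lower than in Lgr5-positive wells (limma, 5 libraries), with 15.9% of all genes higher and 37.2% lower and a median of -0.42. With library totals, under which that median is -0.59, the split was 3 higher and 15 lower, the 3 being P4hb, Ddit3 and Edem1. P4hb, which is also a subunit of the microsomal triglyceride transfer protein and of collagen prolyl hydroxylase, ranged from 1605 to 2376 CPM (median 1668) in absorptive wells, 2.24 ± 0.17 above Lgr5-positive wells (limma adjusted p = 2.97e-12). Its libraries thus overlapped the upper end of the goblet range. The stress factors Ddit3 and Atf4 were higher by 1.63 ± 0.35 and 0.68 ± 0.19, with Ddit3 at 16.3 to 74.3 CPM (median 27.8) and Atf4 at 279 to 464 CPM (median 359). Edem1 (1.51), Dnajc3 (0.68), Herpud1 (0.62) and Derl1 (0.60) were the other higher genes, 3 of them among the 7 degradation genes. Of the 10 translocation genes 5 were lower, Spcs2 (-0.99), Ssr3 (-0.93), Ssr1 (-0.90), Ssr4 (-0.72) and Sec61g (-0.60). The other lower genes were Pdia6 (-1.67 ± 0.27, at 16.3 to 79.4 CPM), Dnajc10 (-1.65), Pdia5 (-1.56) and Hsp90b1 (-0.84).

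Ern2 was not seen in absorptive wells, with 0 transcripts of 608996 in the sorted libraries, where 3 transcripts would be 4.93 CPM. Pooled goblet wells held 377 CPM, at least 76.5-fold higher by that limit and at least 62.2-fold by the 95% Poisson upper bound of 6.06 CPM. Pdia5 had 2 transcripts in absorptive wells (3.28 CPM, 95% Poisson interval 0.398 to 11.9) and 474 CPM in pooled goblet wells. The log2 difference of Ern2 between absorptive and Lgr5-positive wells did not pass (-0.85 ± 0.49, limma adjusted p = 0.151).

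In wells of no class the mean level of 37 of the 40 genes lay between those of Lgr5-positive and goblet wells. Canx was highest there, at 474 to 679 CPM against 316 to 498 CPM in goblet wells, Derl3 was at 0 to 16.7 CPM, and Ern1 was below its Lgr5-positive mean. All 39 tested genes had a positive difference from Lgr5-positive wells, and 3 passed: P4hb (0.75 ± 0.15), Hspa5 (0.66 ± 0.17) and Ostc (0.69 ± 0.18). None was lower, and in the same fit 0.916% of all genes were higher and 0.627% lower. The 3 fell to 1 without sorted library 1, 2, 5 or 7. At an unadjusted limma p below 0.05 17 members were higher, and with precision weights 13 passed. The shares of all genes for these counts are not given here. These wells are no single kind, and goblet markers outside the rule summed to between 969 and 10515 CPM in them. The part of that in the result was not tested.

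**Figure D4:**
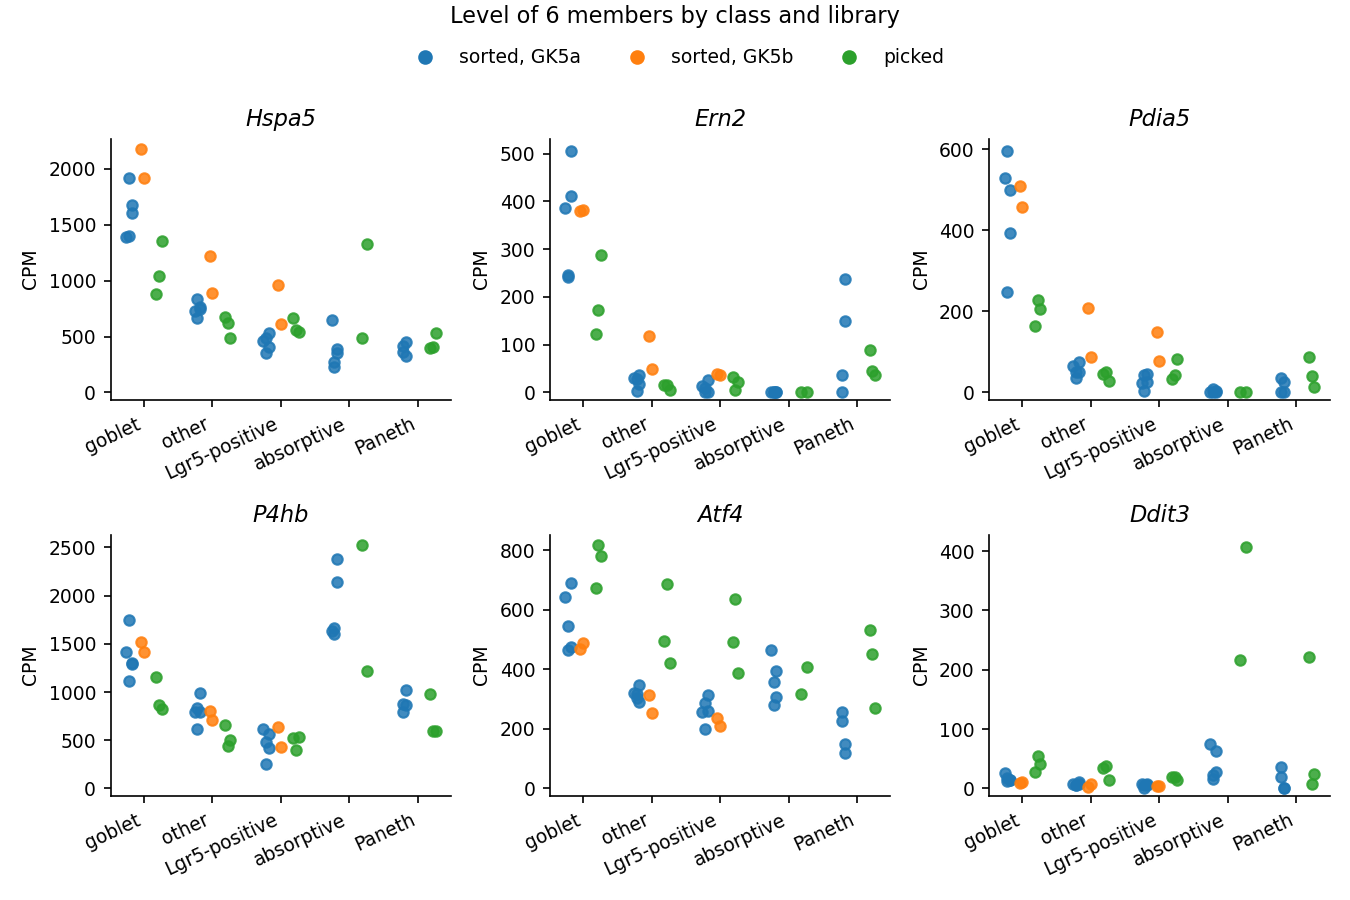
Level of 6 of the genes (CPM of summed wells, linear axes) by class of well, with 1 point per library and colours for sorted GK5a, sorted GK5b and picked libraries. Hspa5, Ern2 and Pdia5 of the sorted libraries are highest in goblet wells, P4hb is high in absorptive, goblet and Paneth wells, and Ddit3 is low except in absorptive wells, with 408 and 217 CPM in picked ones, and in 1 picked library of Paneth wells.

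Between the sorted plates the 2 GK5b libraries carried more of these transcripts than the 5 GK5a libraries. The GK5b titles end in G and in L, and Lgr5-positive wells made up 6.82% and 24.1% of their wells in that order. Whether the GK5b libraries are replicates of the same condition is therefore not known. The summed share of whole libraries was 1.58% and 1.13% in GK5b and 0.844 to 0.890% in GK5a, a difference of 0.494 points (exact permutation p = 0.0952, the smallest that 2 libraries against 5 allow). Of 39 genes tested, 21 were higher in GK5b and none lower (limma), with 5.98% of all genes higher and 6.91% lower. The largest differences were those of Ern2 (2.02 ± 0.25), Pdia3 (1.85 ± 0.16), Pdia5 (1.80 ± 0.22) and Dnajc10 (1.66 ± 0.25). The other 17 were Creld2, Sec61g, Pdia6, Ssr2, Hspa5, Hyou1, Manf, Calr, Sdf2l1, Xbp1, Dnajc3, Ssr3, Herpud1, Ssr4, Ssr1, Hsp90b1 and Sec61a1, at 0.54 to 1.05. Goblet wells are more common in GK5b, and with goblet wells left out 5 genes were higher. Without sorted library 6 the count was 4. The share of all genes called under either setting is not given here, and whether the fall is particular to the members was not tested. The summed share was also above all GK5a libraries in Lgr5-positive wells (0.779 against 0.602% on average) and in wells of no class (1.12 against 0.887%), each with an exact permutation p = 0.0952, again the smallest possible. Goblet markers reached up to 0.319 and 0.606% of the transcripts of these classes, and their part was not tested. In the bins of goblet markers below the goblet threshold the codes overlapped. Under 0.1% the members' share was 0.732 and 0.743% in GK5b and 0.70 to 0.765% in GK5a. At 0.1 to 0.5% it was 0.803 and 0.722% against 0.737 to 1.46%. Within goblet wells the summed share was 1.98% in GK5b and 1.83% in GK5a (exact permutation p = 0.286). There limma called no gene higher or lower between the codes, and it called 0% of all genes in either direction. At an unadjusted p below 0.05 1 member was higher, Pdia3 (1.19 ± 0.23), and with precision weights 1 gene passed.

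The picked libraries carried less. Their summed share was 0.678, 0.623 and 0.737%, below each of the 7 sorted libraries, a difference of -0.324 points (exact permutation p = 0.0167, the smallest that 3 libraries against 7 allow), and -0.183 points from the GK5a libraries alone (p = 0.0357, exact permutation test). Lgr5-positive wells did not show this, at 0.634% ± 0.0446 (n = 3) against 0.653% ± 0.106 (n = 7; exact permutation p = 0.933). Wells of no class, 373 of the 501 picked wells, were lower at 0.685% ± 0.0683 (n = 3) against 0.953% ± 0.152 (n = 7; exact permutation p = 0.0167), and by -0.203 points against GK5a libraries alone (exact permutation p = 0.0357). Goblet wells were lower too, at 1.11, 1.17 and 1.13% in the picked libraries and 1.60 to 2.06% in the sorted ones (exact permutation p = 0.0167). A picked goblet well holds other cells by design, so fewer goblet cells and less of these transcripts per goblet cell cannot be told apart in it. Goblet markers made up 4.40 to 8.05% of the transcripts of picked goblet wells and 6.71 to 8.92% of sorted ones.

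Over whole libraries 2 genes were higher in picked than in sorted libraries, 8 were lower (limma, 39 tested), and of all genes 14% were higher and 15.4% lower. With library totals the split was 2 higher and 20 lower, and the median of all genes moved from -0.08 to -0.39. Ddit3 was at 30.03, 20.7 and 44.7 CPM in the picked and 5.79 to 13.1 CPM (median 9.47) in the sorted libraries, 2.00 ± 0.28 on the log2(CPM + 1) scale (limma adjusted p = 0.000258). Atf4 was at 638, 410 and 497 CPM against 305 to 373 CPM (median 316), a difference of 0.98 ± 0.17. Neither gene overlapped between the groups, and both rose under library totals as well. The lower genes were Dnajc10 (-1.42), Ssr3 (-0.91), Ostc (-0.88), Spcs2 (-0.82), Ssr1 (-0.78), Canx (-0.64), Spcs1 (-0.49) and Derl1 (-0.42). Without sorted library 6 there were 6 higher genes, with GK5a libraries only 9, and without picked library 2 there were 5 lower genes.

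Within Lgr5-positive wells 5 genes were higher in picked libraries and 4 lower of 37 tested, where 9.1% of all genes were higher and 11.4% lower. Atf4 was at 636, 388 and 493.3 CPM in picked and 200 to 313 CPM in sorted wells of this kind, a difference of 1.24 ± 0.19 (limma adjusted p = 0.000255). Creld2 (1.10), Sec61g (1.00), Ssr4 (0.61) and Calr (0.59) were the others above, and Sel1l (-0.86), Spcs2 (-0.84), Derl1 (-0.61) and Ssr3 (-0.57) were below. Without picked library 1 there were 2 lower genes. The picked wells of this class held less of 6 stem markers other than Lgr5 (601 to 977 against 1682 to 3276 CPM), more Defa transcripts (0.329 to 0.353 against 0.00163 to 0.0303%) and more Rn45s, a ribosomal RNA precursor (19402 to 34530 against 1755 to 8165 CPM), and the part of these was not tested. Within goblet wells none of 37 was higher and 20 were lower, where 6.67% of all genes were higher and 12.1% lower, and the largest differences were those of Spcs1 (-2.12 ± 0.36), Derl1 (-1.86), Pdia4 (-1.76) and Ssr1 (-1.65). Picked goblet wells held only 6.0 Pdia4 and 16.0 Derl1 transcripts, with 0 of both in picked library 2. Spcs1 and Ssr1 were at 41.0 CPM in that library, on a sum of 24369 transcripts. These sizes thus rest on few transcripts. At an unadjusted limma p below 0.05 1 member was higher, and with precision weights 1 was higher and 10 were lower. The lower count was 11 without sorted library 6, 13 without sorted library 7 and 8 with GK5a libraries only, an alternative chosen after seeing the data. Rn45s was at 13645 to 58325 CPM in picked and 1766 to 10549 CPM in sorted goblet wells, and the nuclear RNA Malat1 at 411 to 1047 and 1872 to 3097 CPM. Their part in these differences was not tested.

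The class differences inside the 3 picked libraries were measured on few wells, 31 goblet, 22 Paneth, 19 absorptive and 56 Lgr5-positive. For goblet against Lgr5-positive wells 31 of 38 tested genes had a positive difference and none was called (limma), where 0.372% of all genes were higher and 0.0648% lower. At an unadjusted p below 0.05 9 were higher, and with precision weights 6 passed, counts for which the shares of all genes are not given here. Ern2, at 172, 287 and 123 CPM in goblet and 4.92, 22.4 and 32.8 CPM in Lgr5-positive wells, had the largest difference, 2.87 ± 0.70 (limma adjusted p = 0.0843), with no overlap. In Paneth wells no member was called, where 0.696% of all genes were higher and 0.0324% lower, 4 were higher and 1 lower at an unadjusted limma p below 0.05, and 3 passed with precision weights. In absorptive wells, counted in 2 picked libraries, P4hb (1.44) and Ddit3 (3.01) were higher and Ssr4 (-3.28), Sec61b (-3.16) and Pdia5 (-2.39) lower, with 2.93% of all genes higher and 12.9% lower. Without picked library 1 none was higher and 1 was lower. Ddit3 was at 408 and 217 CPM there, from 17.0 transcripts. Ssr4, Sec61b and Pdia5 had 2.0, 7.0 and 0 transcripts in these absorptive sums of 9815 and 60026 transcripts, near the limit of detection. The sizes of their differences rest on few transcripts and on the added 10 CPM.

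Whether the goblet difference itself is smaller in picked wells was tested as an interaction. It was lower in picked libraries for 8 of 37 genes and higher for none (limma), with 0.29% of all genes higher and 2.16% lower: Spcs1 (-2.15 ± 0.41), Sec61b (-1.46 ± 0.24), Pdia6 (-1.37 ± 0.30), Ostc (-1.35 ± 0.31), Hsp90b1 (-1.26 ± 0.24), Hspa5 (-1.25 ± 0.24), P4hb (-1.02 ± 0.26) and Calr (-0.96 ± 0.23). At an unadjusted limma p below 0.05 31 were lower and none higher, and with precision weights 2 passed. The shares of all genes for these counts are not given here. With library totals 2 were lower, while the median moved from -0.30 to -0.009 for all genes and from -1.04 to -0.66 for the members, and thinning to 1000 transcripts also gave 2. The count moved with single libraries: it was 5 without sorted library 1 or 6, 1 without sorted library 2, 3 or 7, 2 without sorted library 5, and 23 without picked library 1.

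**Figure D5:**
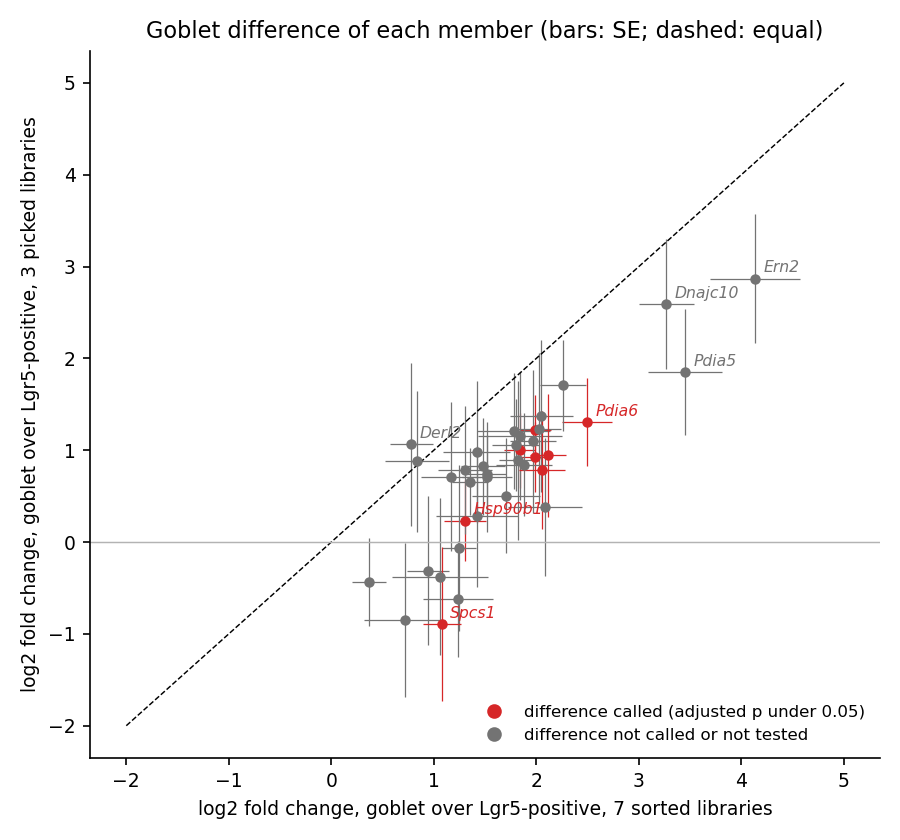
Log2 difference of each gene between goblet and Lgr5-positive wells in the 7 sorted libraries (horizontal axis) and in the 3 picked libraries (vertical axis), with bars of 1 SE, a dashed line where both are equal, and in red the 8 genes whose difference between the 2 was called. All points but those of Derl2 and Ddit3 lie below the dashed line.

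Outside the 40 genes, 5 other lists of ER and early secretory genes were counted in goblet against Lgr5-positive wells. Other folding enzymes were higher in 14 of 29 tested and lower in none, led by Agr2 (5.81 ± 0.47 on the log2 scale), Txndc5 (3.85), an isomerase, and Qsox1 (3.77), a sulfhydryl oxidase. Other regulators were higher in 6 of 19 and lower in 1, led by Creb3l1 (3.86) and Creb3l4 (3.44), membrane-bound transcription factors of the Atf6 kind. Other translocation and glycosylation genes were higher in 18 of 29, other degradation genes in 8 of 23, and genes of traffic between ER and Golgi in 39 of 52 with 1 lower, led by the retrieval receptor Kdelr3 (3.67) and the coat subunit Sec24d (3.19). Their medians were 0.74, 0.63, 1.02, 0.60 and 1.22 in that order, against -0.17 for all genes.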

How the data were processed

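Transcripts of single sorted cells and of picked doublets or triplets were measured by CEL-seq2 in 10 plates. The submitters' processing notes name BWA 0.6.2-r126 and the build mm10. How reads were counted, and whether by strand, is not given in the sources used here, so overlapping and antisense genes cannot be told apart. The deposited values are the authors' molecule estimates per gene and well, a unit of other kind: they are not whole, but 100% become whole barcode counts (within 0.001) when the correction for 4096 possible barcodes is undone. No count model was run on them. Spike-ins were left out and no mitochondrial gene is listed.

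Wells with at least 1000 endogenous transcripts were classed by the given marker shares and summed per library and class (at least 5 wells). limma 3.58.1 (R 4.3.3) with a mean-variance trend was fitted to log2(CPM + 10), or log2(CPM + 1) for whole libraries, after TMM scaling, over genes with at least 10 transcripts in at least 3 sums. P-values were adjusted over all genes tested. Fold changes on this scale understate those of low genes. Summed shares were compared over libraries with exact permutation tests, two-sided (scipy 1.17.1). The fit was tested on simulated data. No doublet caller was run, and 1 well that met 2 class rules was left out. Libraries of a group differed from each other beyond counting error (lowest chi-square per gene 4.27 in any pair), so each counts as 1. Wells are named by number, not by cell barcode, so shared barcodes could not be counted.

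The members, the lists and the tests were chosen with earlier results of these data known. Values in full are given for the 12 members with the largest called goblet difference, the 5 with the highest level and 9 fixed regulators and controls, 19 in all. Promoters came from RefSeq (GRCm38.p6), and positions of genes from the GENCODE annotation of the same assembly. Alternatives covered scaling, pseudocount, filters, weights, thinning, thresholds, plates and single libraries.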

Additional observations from a re-analysis of the deposited data

Results flagged for a closer look

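Dixon's test was applied to 63 sets of 4 to 10 libraries, of which chance alone marks about 1 in 20, and 11 values stood apart, 9 of them in sorted library 6. Over all wells sorted library 6, which has the most goblet wells, was far above the other sorted libraries for Pdia6 (814 CPM), Manf (592 CPM), Sdf2l1 (61.1 CPM), Sec61b (718 CPM), Hsp90b1 (1130 CPM) and the summed share (1.58%). It also stood apart for the summed share in wells of no class (1.29%) and for Hspa5 in Lgr5-positive wells (963 CPM). In goblet wells Ern1 was at 1.44 CPM in sorted library 6 and at 0 in the other sorted libraries, Derl3 was at 4.62 CPM in sorted library 2, and Ostc was at 1245 CPM in sorted library 1. The Ern1 and Derl3 values are near the limit of detection. Ern1 had 3 transcripts in all sorted goblet wells, and Derl3 was seen in 4 of the 361.

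The goblet difference was smaller in picked than in sorted libraries by the interaction test of limma for 8 members. The differences were -2.15 for Spcs1, -1.46 for Sec61b, -1.37 for Pdia6, -1.35 for Ostc, -1.26 for Hsp90b1, -1.25 for Hspa5, -1.02 for P4hb and -0.96 for Calr on the log2 scale. With library totals 2 members were called, with precision weights 2, and with 1 library left out between 1 and 23.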

How the results depend on the processing

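The 35 goblet calls stayed between 34 and 35 when 1 library was left out. Single genes kept direction and side of the threshold in 3402 recomputed values, lost it in 376, gained it in 87, changed sign without being called in 84 and reversed in 21. Thinning to 1000 transcripts left fewer genes to test and gave 15 higher in goblet wells, 1 higher and 11 lower in Paneth wells, 1 higher in absorptive and 0 in other wells, 1 higher and 1 lower in picked absorptive wells, 2 higher and 1 lower for picked against sorted Lgr5-positive wells, 1 higher and 8 lower for goblet wells, and 2 for the interaction. The share of all genes called under each alternative is not given here. A changed count therefore does not show a change particular to the members. For what follows the cause was not tested.

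With totals in place of TMM there were 3 higher and 20 lower in Paneth wells, 3 higher and 15 lower in absorptive wells, 3 lower in picked Paneth and 7 in picked absorptive wells, 20 lower in picked libraries, 3 higher in picked Lgr5-positive wells, and 2 for the interaction. Doubled class thresholds gave 6 higher in Paneth, 16 lower in absorptive, 5 higher in other, 5 in picked goblet and 1 in picked Paneth wells, 13 lower in picked against sorted goblet wells and 5 for the interaction. Whole barcode counts gave 6 higher and 7 lower in Paneth and 11 higher in absorptive wells. Without a library block there were 6 higher in Paneth, 1 in other and 1 in picked absorptive wells. A pseudocount of 1 gave 8 lower in Paneth, 4 higher in absorptive, 1 in other and 0 in picked absorptive wells, and one of 50 gave 6 higher in other and 2 in picked goblet wells and 17 for the interaction. Precision weights gave 1 lower in Paneth, 13 higher in other, 1 lower for goblet against Paneth, 6 higher in picked goblet and 3 in picked Paneth wells, 0 lower in picked Lgr5-positive wells, 1 higher and 10 lower in picked goblet wells, 1 higher in GK5b goblet wells and 2 for the interaction. Requiring 2 Lgr5 transcripts, which leaves 1 picked library with enough wells, gave 12 higher in absorptive and in other wells, 3 higher and 16 lower in picked Lgr5-positive wells and 7 higher for the interaction. At least 3 wells per class gave 11 higher in absorptive wells. Without the low-count filter there were 8 higher in other, 0 in picked absorptive and 1 in GK5b goblet wells, and 1 for the interaction. The mean of CPM per well gave 5 higher in other and 0 in picked absorptive wells. GK5a libraries alone gave 1 higher in other wells and 9 higher in picked libraries, and within classes 2 lower in Lgr5-positive wells, 8 in goblet wells and 2 for the interaction. GK5b libraries alone gave 1 higher and 15 lower in picked libraries. Wells of at least 3000 transcripts gave 5 higher in picked goblet and 1 in picked Paneth wells, and 5 were higher in GK5b with goblet wells left out.

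Leaving out 1 library at a time gave 4 to 10 higher and 4 to 8 lower in Paneth, 1 to 3 higher in other, 0 to 1 in picked goblet and 0 to 1 in picked Paneth wells. It gave 0 higher and 1 lower in picked absorptive wells, 2 to 6 higher and 5 to 9 lower in picked libraries, 4 to 24 in GK5b, 2 to 4 lower in picked Lgr5-positive wells, 0 to 1 higher and 11 to 19 lower in picked goblet wells and 1 to 23 for the interaction. The picked difference in summed share ran from -0.353 to -0.228 points, and with 2 picked libraries its test cannot go below the threshold. The difference between high and low goblet wells ran from -0.0325 to 0.0593 points, and was -0.0182 with a split at 10%. Absorptive minus Lgr5-positive wells was -0.0161 as a median over wells, and Paneth minus Lgr5-positive wells was 0.00278 without the class genes and 0.324 without all 4 marker lists.

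Single genes reversed in Paneth wells with totals (Hspa5 -0.22, Calr -0.53, Pdia6 -0.0002, Xbp1 -0.10, Atf4 -0.48, Derl2 -0.0454), after thinning (Calr -1.75, Pdia6 -0.21, Dnajc3 -2.29, Dnajc10 -0.75, Xbp1 -2.24, Herpud1 -1.51), with precision weights (Pdia4 0.0469, Derl3 3.72) and with doubled thresholds (Sdf2l1 -1.17). In absorptive wells thinning reversed Herpud1 (-0.23) and Derl1 (-0.37), and for the interaction 2 Lgr5 transcripts reversed Calr (0.31), Pdia6 (0.15), Manf (2.83) and Spcs1 (1.17). Totals moved the median of all genes from -0.17 to -0.38 in goblet wells. Over the pooled wells of all sorted libraries, 3 transcripts are 4.93 CPM in absorptive and 12.9 CPM in Paneth wells. The tests used sums of single libraries, where the limit set by depth is higher. These sums held 53866 to 252059 transcripts in absorptive and 27345 to 53264 in Paneth wells.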

Other observations

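In absorptive wells of the sorted libraries, where 15.9% of all genes were higher and 37.2% lower than in Lgr5-positive wells, other translocation and glycosylation genes were higher in 0 and lower in 17 of 29 tested. Srp19 of the signal recognition particle was at -1.79 and Krtcap2, an oligosaccharyltransferase subunit, at -1.47. Other folding genes were higher in 0 and lower in 10 of 29, and other degradation genes higher in 1 and lower in 3 of 23. Genes of traffic between ER and Golgi were higher in 22 and lower in 7 of 52, with the COPII coat genes Sec24d (2.92 ± 0.44, limma adjusted p = 3.23e-06), Sec23a (2.84) and Sec24a (2.20) higher and Tmed9 (-2.91) and Ergic1 (-2.32) lower. Creb3l3, a membrane-bound factor of liver and intestine linked to lipid metabolism, was higher by 4.65 ± 0.32 (limma adjusted p = 6.91e-13).

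In Paneth wells, where 2.89% of all genes were higher and 58% lower, other regulators were higher in 8 and lower in 5 of 19. Nupr1, a stress-induced nuclear protein, was higher by 5.42 ± 0.45 (limma adjusted p = 1.27e-10) and Bhlha15 (Mist1), a factor of secretory cells, by 2.76, while Nfe2l2, a factor of the oxidative stress response, was at -3.21 and Eif2a at -2.78. Traffic genes were higher in 10 and lower in 19 of 52, with Bcap29 at -1.99 and the retrieval receptor Kdelr3 at 1.86.

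Derl3 was found in 53 wells of both kinds of library with 101 transcripts in all. Of these, 44.0 transcripts lay in 13 wells that also held Igj, the immunoglobulin joining chain, and 38.0 lay in 8 wells that held Mzb1, another plasma cell gene. Igj was seen in 84 of all wells used and Mzb1 in 16.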
